A study of Caenorhabditis elegans with 4 samples.

Results

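Chromosome II carried 279 regions at which PQN-85 was called bound in mixed-stage embryos of Caenorhabditis elegans, out of 1976 regions on the nuclear chromosomes. The regions were every peak listed on chromosome II in 3 deposited lists, merged wherever peaks of any list shared at least 1 bp. ChIP replicate 1 gave 246 of these peaks, ChIP replicate 2 gave 97 and a series-level list gave 143, or 486 peaks in all. Chromosomes III, IV, V and X, with 318, 343, 284 and 423 regions, served as background (1368 regions).

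The study mapped PQN-85 by chromatin immunoprecipitation and sequencing (ChIP-seq) in the wild-type laboratory strain N2. All 4 samples had the same source, embryos of every stage bleached from gravid adults kept in liquid culture at 20 °C, from a population of males and hermaphrodites. They comprised 2 ChIP samples (replicates 1 and 2), made with SDQ4481, a rabbit polyclonal antibody to PQN-85 purified by affinity, and 2 samples of input DNA. The labels do not say whether the replicates were separate cultures, and an extract of whole embryos mixes all their cell types. No peak list of the inputs was used here.

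PQN-85 corresponds in the worm to yeast Scc2 and mammalian NIPBL, the protein that loads the ring-shaped cohesin complex onto chromosomes. Cohesin holds sister chromatids together until they separate in mitosis and folds chromosomes into loops, and its loader is found in many organisms at strongly transcribed genes. Worm chromosomes are holocentric, so that no single centromere divides them into arms. The outer parts of each autosome, called arms by convention, are rich in repeats and recombine often, while the centre is gene dense.

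Chromosome II had close to the pooled background number of regions for its length, and they were unevenly spread along it. The background chromosomes differed among themselves, with 13.6 regions per Mb on V, 19.6 on IV, 23.1 on III and 23.9 on X. Chromosome II held 18.3 regions per Mb over 15.3 Mb (WormBase WS220). Pooled, III, IV, V and X held 19.6 per Mb, a ratio of 0.93 (95% interval 0.82 to 1.06). The ratio was 0.90 in replicate 1, 0.94 in replicate 2 and 0.95 in the series-level list. The regions covered 142.6 kb, or 0.933% of the chromosome, against 1.09% of the background chromosomes. Intervals given here treat regions as independent and cover counting error only, and with 2 replicate lists no test over samples could be made. Differences between chromosomes were therefore described and not tested.

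The left side of chromosome II was sparse. With the chromosome cut into 3 parts of equal length, the left part held 55 regions, the centre 116 and the right part 108. The left part thus held 19.7% of the regions (15.2 to 24.9), against 31.1% on III, IV, V and X (28.6 to 33.6). It held 19.5% of the replicate 1 peaks (14.8 to 25.0), 16.5% of the replicate 2 peaks (9.73 to 25.4) and 18.9% of the series-level peaks (12.8 to 26.3). In each of the 3 lists these shares were below those of all 4 background chromosomes, whose lowest was 24.7% in replicate 1, 23.3% in replicate 2 and 25.3% in the series-level list. The intervals of II nevertheless overlapped those of V in each list. They also overlapped those of III in replicate 1 and the series-level list, and those of IV in replicate 2 and the series-level list.

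**Figure D1:**
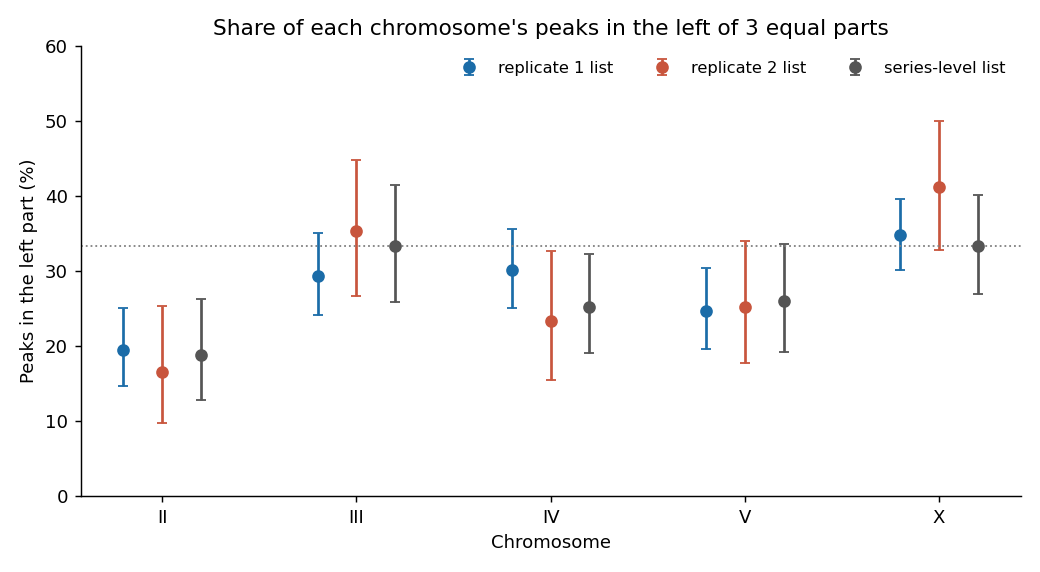
Share of each chromosome's peaks (%) whose midpoint lay in the left of 3 equal parts of the chromosome, by list, with exact 95% binomial intervals; the dotted line marks an even spread. Chromosome II had the lowest point in every list, at 19.5%, 16.5% and 18.9%. Its intervals overlap those of V in every list and those of III and IV in some.

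The emptiest part was a single block. Of 10 bins of equal length, numbered from the left end, bin 2 held 8 regions, none in all 3 lists, against 20 to 45 in the others. Bin 2 of V was also sparse, with 11 regions in a longer bin, while III, IV and X had 18, 38 and 50 there. The longest stretch without a region ran from 1661593 to 2570460 (908.9 kb), and the next longest from 1320809 to 1661446 (340.6 kb). A single 146 bp peak of replicate 1 from 1661447 to 1661592, with a low score of 62.28, separated them. The longest stretches on III, IV, V and X measured 388.5, 400.7, 435.0 and 269.6 kb. A stretch without a region holds no peak of any list, so a gap of each list at this place is not separate support. These gaps measured 1055.2 kb in replicate 1, 1577.7 kb in replicate 2 and 1249.7 kb in the series-level list. Each was the longest of its list on II and longer than the longest gap of that list on the background chromosomes. The remaining stretches among the 5 longest ran from 5845238 to 6185271 (340.0 kb), from 2998213 to 3290528 (292.3 kb) and from 7200488 to 7478605 (278.1 kb). Whether reads can be placed uniquely in the long stretch was not analysed here.

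The centre and the right part held the rest, and the lists differed in how. The centre held 41.6% of the regions of II (35.7 to 47.6), against 36.3% of the background, but V had 41.5%. In the series-level list the centre of II held 36.4% of the peaks, against 37.0% in the background, and by base pairs over all regions it held 38.3%, against 38.2%. Bin 5 had the most regions, 45, but 33 of them were in 1 list only. It held 44 replicate 1 peaks, 5 replicate 2 peaks and 14 series-level peaks. Bin 10, at the right end, had 40 regions and many peaks in every list, with 37, 16 and 27 peaks in the same order. Wide regions lay mostly on the right. Of the 24 regions on II of 1 kb or wider, 18 were in the right part (75.0%, 53.3 to 90.2), 5 in the centre and 1 in the left part, whereas III, IV, V and X together had 34, 57 and 34 in the right, centre and left parts. The right part held 45.9% of the bound base pairs of II, against 29.4% on the background chromosomes. Without the dense cluster described below it held 41.4%, and 13 of the 19 wide regions.

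**Figure D2:**
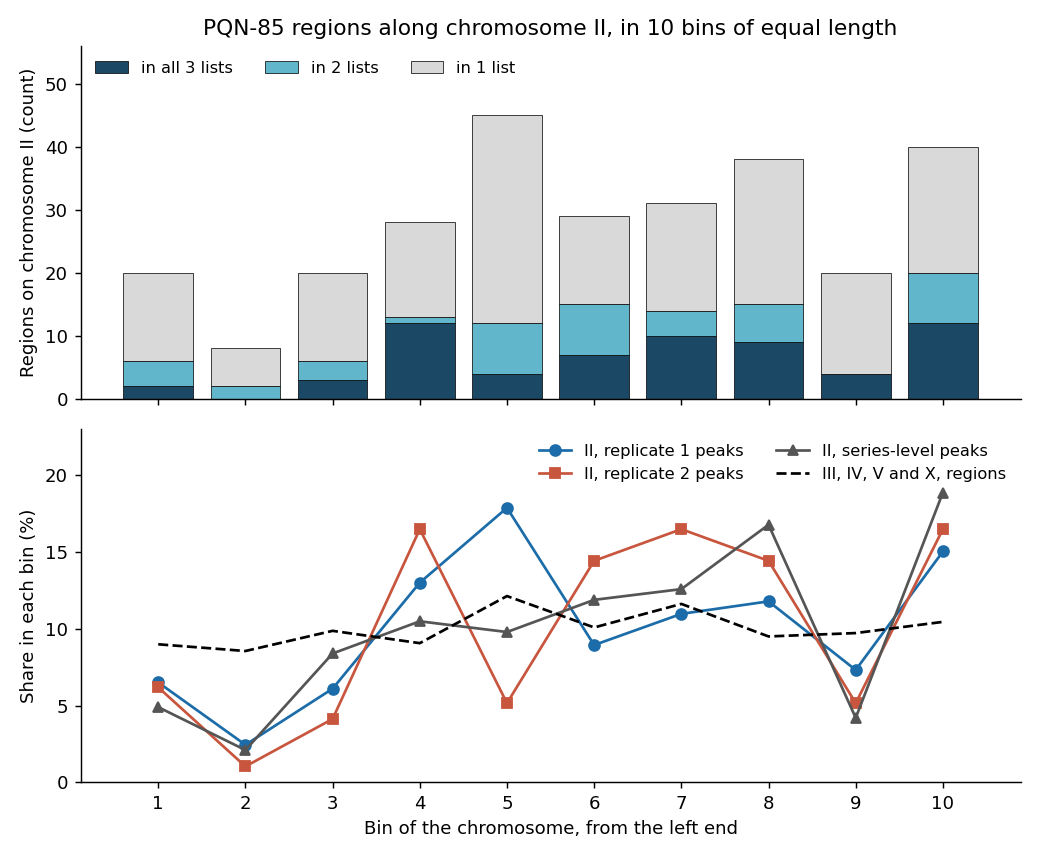
PQN-85 regions of chromosome II in 10 bins of equal length. Upper plot, number of regions, coloured by how many lists hold them; lower plot, share of each list's chromosome II peaks in each bin (%), with the share of the regions of III, IV, V and X as a dashed line. Bin 2 had 8 regions, and bin 5 had 44 replicate 1 peaks but 5 replicate 2 peaks.

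Support by the lists was uneven as well. On chromosome II, 63 of 279 regions were in all 3 lists (22.6%, 17.8 to 27.9), against a background of 24.0% on III, IV, V and X. Replicate 1 alone held 141 regions (50.5%), the series-level list alone 24 (8.60%) and replicate 2 alone 7 (2.51%). The shares on III, IV, V and X were close to these, at 51.2%, 8.11% and 1.68% in the same order. A further 27 were in replicate 1 and the series-level list, 15 in replicate 2 and the series-level list, and 2 in both replicates without the series-level list. The class in replicate 2 and the series-level list made up 5.38% of the regions (3.04 to 8.71), against 2.63% on the background chromosomes (1.85 to 3.62). Its share on V, 3.87% (1.95 to 6.82), lay within the interval of II, and III, IV and X had 2.83%, 2.62% and 1.65%. How the series-level list was made from the replicates is not given in the sources used here, so the 3 lists are not 3 separate observations of a region.

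Between the replicates, 74 of the 97 replicate 2 peaks on II overlapped a replicate 1 peak (76.3%, 66.6 to 84.3), against 86.5% on the background chromosomes (83.1 to 89.4). In the other direction 77 of 246 replicate 1 peaks overlapped one of replicate 2 (31.3%, 25.6 to 37.5), against 32.7% in the background. Among peaks in the highest-scoring 20% of the replicate 1 list, 41 of 45 on II were found in replicate 2 (91.1%, 78.8 to 97.5), against 79.5% of 259 on III, IV, V and X (74.1 to 84.3). The pooled share was lowered by X, at 68.4%, while III, IV and V, at 87.8%, 85.4% and 85.1%, lay within the interval of II. All 20 peaks of II in the highest-scoring 20% of replicate 2 were found in replicate 1, as were 99 of 101 in the background. In the lowest-scoring 20%, 8 of 54 replicate 1 peaks and 9 of 17 replicate 2 peaks were shared. The background had 21 of 240 and 59 of 88 there. Of the 77 shared replicate 1 peaks on II, 41 thus belonged to the highest-scoring 20% of that list, against 206 of 409 in the background.

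Regions in all 3 lists were also the wide ones. Their median width was 657 bp (335 to 4498), against 320 bp for regions of replicate 1 alone and 201 bp for those of the series-level list alone. A merged region spans the peaks of every list that holds it, so the merging itself adds to this difference. A wide region also meets the 1 bp rule more easily. Within the replicate 1 list, peaks of II shared with replicate 2 had a median width of 542 bp, against 326 bp for the others. On III, IV, V and X these medians were 612 and 323.5 bp. Over all 279 regions the median was 373 bp, with an interquartile range of 242.5 to 514.5 bp, and the narrowest measured 119 bp. The background median was 376 bp. Of the 24 regions of 1 kb or wider, 22 were in all 3 lists, against 109 of 125 on III, IV, V and X. The 24 together held 33.4% of the bound base pairs of II. The other 2 were a 1026 bp region of replicate 1 from 11749284 to 11750309 and a 1541 bp region of replicate 2 from 13939869 to 13941409. In 46 of the 63 regions in all 3 lists each list had exactly 1 peak (73.0%, against 74.8% in the background). In the other 17 at least 1 list had several. Width and score went together within each list, with a Spearman's rho of 0.82 across 246 replicate 1 peaks, 0.77 across 97 replicate 2 peaks and 0.65 across 143 series-level peaks. The background had similar values of 0.83, 0.78 and 0.70.

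**Figure D3:**
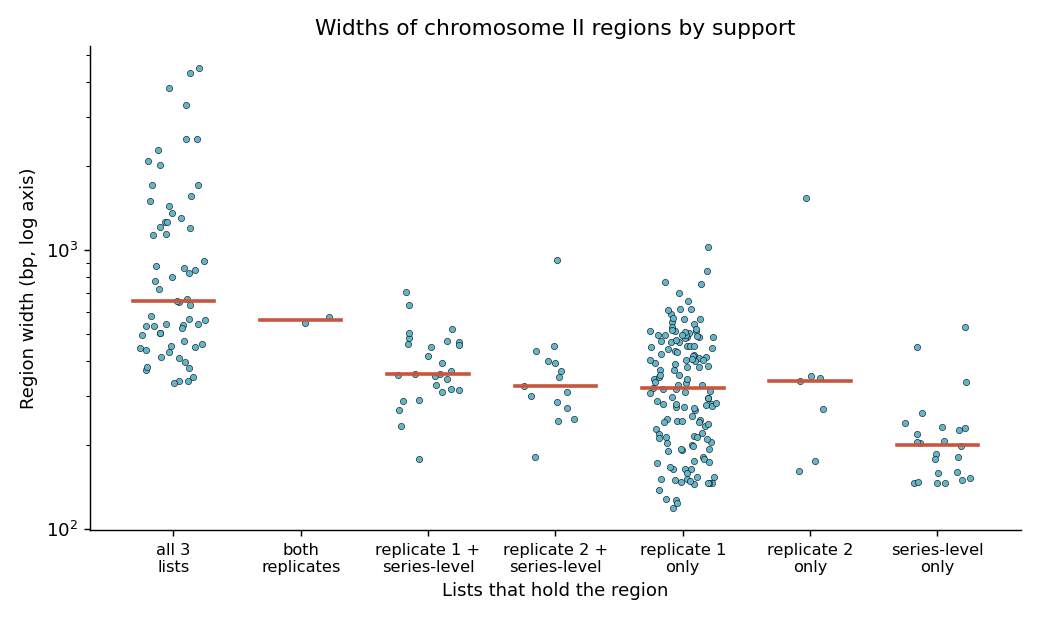
Width of each chromosome II region (bp, log axis) by the lists that hold it; each point is 1 region, points are spread sideways for legibility, and bars mark medians. Regions in all 3 lists had a median of 657 bp and hold 22 of the 24 regions of 1 kb or wider.

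The 100 kb window with the most bound sequence lay near the right end of the chromosome. From 13817436 to 13828696, 5 regions, each in all 3 lists, followed one another over 11261 bp. The gaps between these merged regions were 75, 116, 51 and 203 bp, so that the regions covered 96.0% of the stretch. Peaks of replicate 1 covered 78.6% of the stretch, those of replicate 2 95.5% and those of the series-level list 77.1%. That window, from 13800001 to 13900000, held 11.3 kb of bound sequence, the most of the 153 windows of II. Its 9 replicate 1, 6 replicate 2 and 10 series-level peaks compare with means per window of II of 1.61, 0.634 and 0.935. Windows with as many peaks existed elsewhere. In the same order of lists, the highest counts were 13, 14 and 13 on V and 14, 6 and 9 on III. They were 10, 4 and 10 on IV and 19, 7 and 9 on X, not always in the same window. The cluster held 7.37% of all bound base pairs of II in replicate 1, 15.7% in replicate 2 and 13.3% in the series-level list.

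Each region of the cluster held a strong peak in every list. By its highest peak in each list, the first region, from 13817436 to 13818935, scored 1161.88 in replicate 1, 794.51 in replicate 2 and 26.33 in the series-level list. The second, from 13819011 to 13822316 (3306 bp), scored 1168.58, 3171.85 and 38.94 in the same order. It was a single peak in replicate 2, the highest of all 676 nuclear peaks of that list, whereas replicate 1 had 2 peaks there. The third, from 13822433 to 13824444, scored 1355.56, 813.87 and 35.72. The fourth, from 13824496 to 13826208, scored 1414.32, 1047.53 and 39.35. The last, from 13826412 to 13828696, scored 834.4, 1172.9 and 27.29. By these peaks all 5 ranked between 63 and 129 of 1787 in replicate 1 and between 1 and 48 of 676 in replicate 2. Narrower peaks in the same regions scored less, down to 106.17 in replicate 1 (rank 1005), 317.11 in replicate 2 (rank 158) and 4.81 in the series-level list (rank 722 of 1006). Scores are the authors' values for each peak, in a quantity that no header names, and were compared only within a list.

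The peaks of the cluster recurred at near-even steps. In replicate 1 its 6 peaks of 1 kb or wider measured 1256 to 1443 bp, and their midpoints were 1588 to 1918 bp apart, with a median of 1776.5 bp. In the series-level list 6 such peaks of 1182 to 1515 bp were 1546.5 to 1913.5 bp apart, with a median of 1891 bp. Replicate 2 had 5 such peaks, since 1 of them spanned a pair of replicate 1 peaks, and steps of 1774 to 2775 bp. This spacing was measured after the peaks had been seen. The surroundings were empty by comparison. No region lay within the 176.0 kb before the cluster. After it came only a 242 bp peak of replicate 1 from 13829450 to 13829691 (74.14) and a 219 bp series-level peak from 13834389 to 13834607 (7.69), and then 105.3 kb without a region.

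**Figure D4:**
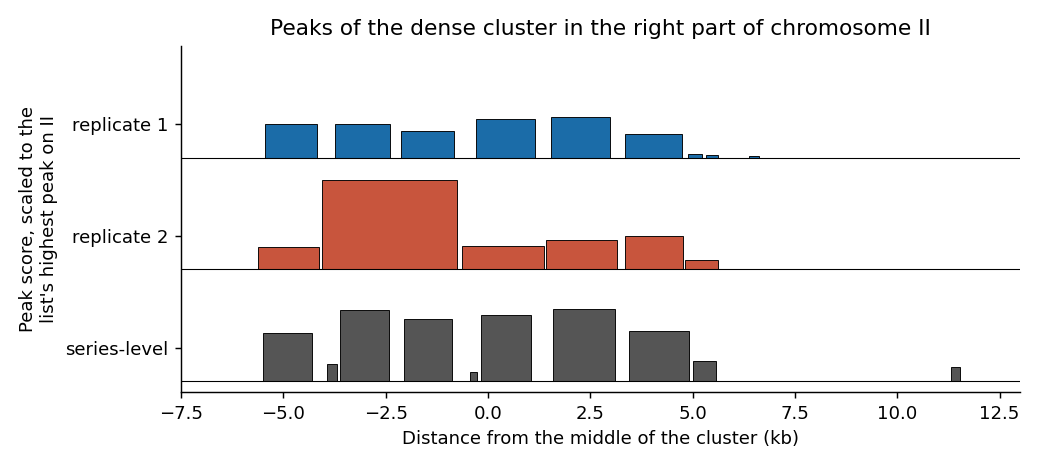
Peaks of the dense cluster in each list against distance from its middle (kb); the height of a box is the peak's score relative to that list's highest score on chromosome II. Replicate 1 and the series-level list each show 6 wide peaks at near-even steps, and replicate 2 joins a pair of them into 1 peak of 3306 bp.

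No gene annotation on WS220 was used here, so no region was assigned to a gene. In a RefSeq table on another build (WBcel235), gene order alone places 13 of the 14 histone (his) genes of chromosome II in one run, from his-16 to his-42, with 3 noncoding genes among them. These genes encode core histones, the proteins around which DNA is wound, which dividing embryonic cells transcribe in quantity. Coordinates of different builds were not compared, and whether any PQN-85 region lies in this run was not analysed here.

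The window with the most regions was of another kind. From 6800001 to 6900000 it held 12 regions, with 12 peaks in replicate 1, 1 in replicate 2 and 1 in the series-level list. In it a chain of 10 regions ran from 6822393 to 6844866 (22.5 kb), with gaps of 28 to 4959 bp. All 10 were in replicate 1 alone, measured 296 to 566 bp and scored 51.5 to 215.09, at ranks from 554 to 1745 of 1787. They covered 19.5% of the chain. The nearest region to the right, from 6852964 to 6853468, was in all 3 lists (273.42, 216.08 and 17.12). The dense cluster was thus dense in every list and the chain in replicate 1 only. Of the other windows, 7 tied for the next place with 6 regions each. On III, IV, V and X the fullest window held 15, 9, 14 and 16 regions. The longest chain there had 13, 6, 13 and 14 regions in the same order.

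Many regions of chromosome II lay in chains. Of the merged regions, 137 (49.1%) lay within 5 kb of another, in 50 chains, against 39.7% to 43.4% on III, IV, V and X. By another measure, 30.9% of the midpoint distances between neighbouring merged regions of II were under 5 kb, against 23.2% to 27.9% on those chromosomes. On that measure II was not set apart within single lists. Of the distances between neighbouring peaks, 30.6% were under 5 kb in replicate 1, 31.3% in replicate 2 and 30.3% in the series-level list, where V had 30.9%, 40.7% and 35.9%. Neighbouring regions lay a median of 20.1 kb apart, from midpoint to midpoint, against 27.0 kb on the background chromosomes pooled and 20.97 kb on III. The median was 21.8 kb in replicate 1, 86.6 kb in replicate 2 and 53.5 kb in the series-level list. The corresponding background medians were 29.4, 71.7 and 46.7 kb, so that II was below the pooled background in replicate 1 and above it in the other lists.

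The 10 strongest sites by series-level score were all in the 3 lists, with 7 in the right part of the chromosome, 2 in the centre and 1 in the left part. The highest was the widest region of II, from 8288321 to 8292818 (4498 bp), which scored 48.67 in the series-level list, 3100 in replicate 1 and 1550.78 in replicate 2. The value 3100 recurred for 19 peaks of the replicate 1 list, of which this was the only one on II. The next highest was the first 439 bp of the chromosome (41.37, 488.84 and 177.42). Then came the second and the fourth regions of the dense cluster, and the third one was also among the 10 highest. The remaining sites ran from 10563214 to 10563780 (36.71, 392.43 and 359.5), from 11960504 to 11961047 (32.4, 405.51 and 387.2), from 14337526 to 14339241 (32.28, 1290.93 and 529.35), from 14250778 to 14251907 (31.54, 910.29 and 905.35) and from 5350273 to 5350702 (30.94, 290.53 and 204.97).

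Some high sites of the replicate lists were not among those 10. The region from 11757441 to 11761747 (4307 bp) had the second highest score of II in both, 1979.2 in replicate 1 and 2698.12 in replicate 2, and 29.05 in the series-level list. The region from 5144682 to 5146773 scored 1889.43, 724.96 and 22.44 in the same order. The region from 12843654 to 12846165 (2512 bp) scored 1396.15, 1028.35 and 27.04. Width did not always come with a score near the top. The 3803 bp region from 4641180 to 4644982 was divided into 6 peaks by replicate 1, 3 by replicate 2 and 2 by the series-level list, and its highest scores were 417.71, 493.43 and 18.13. It was the only region of 1 kb or wider in the left part of the chromosome.

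Among the top 5% of each list, II held 10 of 89 replicate 1 peaks, 6 of 33 replicate 2 peaks and 5 of 52 series-level peaks. Over the whole lists its shares were 13.8%, 14.3% and 14.2%. For the 53 regions of II with exactly 1 peak in each replicate, the scores had a Spearman's rho of 0.73, against 0.56 for 306 such regions on the background chromosomes and 0.49 to 0.64 on each of them. The midpoints of these pairs lay a median of 43.5 bp apart on II, against 43.0 bp on X, 39.0 bp on III, 21.5 bp on V and 19.8 bp on IV. These correlations describe sites of the same libraries, which are not independent of each other. Among regions that stood higher in replicate 1, the largest difference in relative rank was at 5097122 to 5097952, which ranked 468 of 1787 in replicate 1 and 675 of 676 in replicate 2. Among those that stood higher in replicate 2, it was at 8459947 to 8460358, which ranked 1507 and 210.

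**Figure D5:**
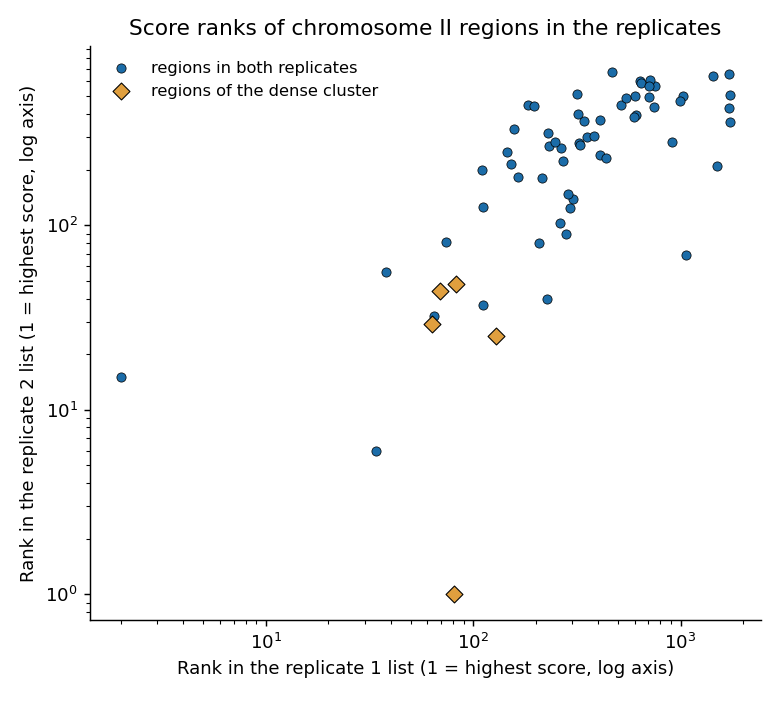
Rank of each chromosome II region held by both replicates in the replicate 1 list and in the replicate 2 list (1 is the highest score, both axes logarithmic), with the regions of the dense cluster as diamonds. The cluster lies among the high ranks of both lists, with 1 region at rank 1 of replicate 2.

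Sites with a high score in 1 replicate and none in the other were few. Among regions of II without a replicate 2 peak, the strongest in replicate 1 was from 1246724 to 1247359 (667.74). The series-level list held it with 6.04. The next were 2 neighbouring regions held by no other list, from 11749284 to 11750309 (580.27) and from 11746517 to 11747356 (399.46), both shortly to the left of the 4307 bp region. Regions without a replicate 1 peak did not reach the highest scores of replicate 2. The strongest were from 14406717 to 14407640 (273.86), from 4130172 to 4130522 (257.98) and from 632484 to 632852 (152.05), at ranks 180, 194 and 307 of 676. The series-level list held all 3, with 16.09, 9.63 and 7.99. The strongest of the 24 regions in the series-level list alone ran from 13460609 to 13460841 (9.92), from 13834389 to 13834607 (7.69) and from 8789887 to 8790093 (7.41), and were 207 to 233 bp wide.

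At the left end of the chromosome, the first region ran from base 1 to base 439 and had a peak in each of the 3 lists. The first regions of III, IV, V and X also began at base 1 and had peaks in all 3 lists. The last region of II, from 15279038 to 15279375, was in the series-level list alone with a score of 5.15. Its last base was taken as the length of the chromosome, so its place at the right end follows from that choice. The last regions of III, IV, V and X were also in the series-level list alone, with scores of 16.81, 16.89, 24.43 and 12.56.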

How the data were processed

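The ChIP-seq samples were 2 ChIP and 2 input samples of N2 embryos. Per the submitters' processing notes, the aligner was BWA and the genome build ce10. Per the file headers, positions refer to WormBase WS220. Peaks were called with MACS for the replicates and MACS v2 for the series-level list, per the files' source columns. The deposited score of each peak is the authors' value, of a quantity no header names. The sources used here name neither the caller's settings nor how the inputs were used. Depth is unknown from peak lists.

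Peaks of chromosome II that shared at least 1 bp across lists were merged in Python 3.11.15 (pandas 2.3.3, numpy 2.4.6, scipy 1.17.1). A region's score in a list is that of its highest peak there. Scores were ranked within each nuclear list. Chromosome length is the largest coordinate listed. Shares have exact (Clopper-Pearson) 95% intervals. Merging and overlap were tested on simulated data. Chromosome I was left out of the background.

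Regions were named by rule: the 10 highest by series-level score, the 5 highest of each replicate, the 3 highest held by 1 replicate or by the series-level list alone, the window of the dense cluster, the 5 widest, the ends, the 5 longest gaps and the 3 windows with the most regions. The most discordant ranks, the long chain and the spacing were added after values were seen. Members and rules were chosen with earlier results of these data known. Alternatives were the higher-scoring 50% of each list, leaving out each replicate, merging within 500 bp, stricter overlap, other windows and each list alone.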

Additional observations from a re-analysis of the deposited data

How the results depend on the processing

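No paired analysis was possible because no result came from a test over samples. Of 77 alternative values for 11 results, 53 stayed within the interval of the reported value, within 1.5 times the reported count or within the spread of the replicates, 24 moved and 0 reversed in direction. Counts, widths and distances have no direction, so the absence of reversals is not a measure of stability. With the higher-scoring 50% of each list, II had 138 regions, 497.5 bp wide and 58.5 kb apart at the median. Leaving out 1 replicate gave 142 to 275 regions, 33.1% to 55.6% in every remaining list, median widths of 335.5 to 360 bp and median distances of 19.9 to 64.9 kb. Merging within 500 bp gave a distance of 35.8 kb and left 3 regions in the window of the dense cluster, and moving that window by 50 kb gave 1 to the right and 7 to the left. A reciprocal overlap of 50% gave shared peaks of 55.7% in replicate 2 and 22.0% in replicate 1, with 12.9% of regions in all 3 lists. Midpoints within 200 bp gave 61.9% and 24.8%. The middle 50% of the chromosome held 55.2% of the regions.

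Further alternatives and the results on the left part of the chromosome and on base pairs were added after the data were seen. Replicate 2 alone gave 97 regions, a distance of 86.6 kb and 57.0% of base pairs in the right part. The series-level list alone gave 143 regions, a width of 243 bp and a distance of 53.5 kb. Among regions in all 3 lists, 12.7% lay in the left part, and the other alternatives for that share gave 16.5% to 22.5%. The causes of these moves were not tested. Replicate 1 holds most of the regions, so the count, the distance and bin 5 rest on it. Without depth, a region missing from a list cannot be told apart from one below its threshold.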
